A study of Mus musculus with 12 samples.

Results

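The 2′-5′-oligoadenylate synthetase (Oas) family was followed through 8 mouse genes, Oas1a, Oas1b, Oas1c, Oas1g, Oas2, Oas3, Oasl1 and Oasl2, in RNA-seq of sorted islet cells. The genes were taken by name: a row of the count table belonged to the family when its Ensembl gene identifier mapped to one of these symbols, so the rule used no measured level, although the family was picked with earlier results of these data known. The table held 52962 gene identifiers, of which 15598 passed the filter for testing (a level above 1 CPM, a read count scaled to a common library size, in at least 3 samples). Of the 8 family members 7 passed, and Oas3 did not.

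Islets came from female NOD mice, the non-obese diabetic strain, whose islets are invaded by immune cells before diabetes develops. The 12 samples formed 4 groups of 3, with β-cells and non-β-cells each sorted from mice of 4 and of 8 weeks of age. All groups shared the NOD genotype, with no treatment and no second strain beside it. The study's methods add that all islets were cultured overnight, dispersed with trypsin and DNase and sorted on cell size and natural fluorescence, and that cells carrying the leukocyte surface protein CD45 were discarded. The non-β fraction is therefore a mixture of every CD45-negative islet cell outside the β gate. The study's figure legends describe each sample as a pool of 3 mice.

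Oas enzymes bind double-stranded RNA, which cells rarely hold outside viral infection, and then join ATP into short 2′-5′-linked chains of adenylate (2-5A). These chains act as a second messenger that leads to the cutting of viral and cellular RNA and so stops translation. Most members are interferon-stimulated genes, transcribed when interferon receptors activate transcription factors such as Stat2 and Irf9, which act at a promoter motif called the interferon-stimulated response element (ISRE). In mice the Oas1 gene of other mammals is duplicated into a cluster in which Oas1a and Oas1g encode active enzymes. Oas1b is known for resistance to flaviviruses and is truncated in many laboratory strains, whereas Oas2 and Oas3 encode larger enzymes built from repeated synthetase units. Oasl1 and Oasl2 carry ubiquitin-like domains, and Oasl1 lacks synthetase activity and is known to hold back the translation of Irf7. β-cells are known to answer interferon with a strong antiviral programme, which is why these sensors are studied in autoimmune diabetes.

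All 8 genes lie on chromosome 5 (genome build GRCm38, positions counted from 1). Oasl2 (ENSMUSG00000029561; 114896936 to 114912234) and Oasl1 (ENSMUSG00000041827; 114923240 to 114937915) are neighbours on the plus strand. The other members lie in a second cluster further along the chromosome, in the order Oas2 (ENSMUSG00000032690; 120730333 to 120749853, minus strand), Oas3 (ENSMUSG00000032661; 120753098 to 120777661, minus), Oas1c (ENSMUSG00000001166; 120800194 to 120812514, minus), Oas1b (ENSMUSG00000029605; 120812635 to 120824163, plus), Oas1g (ENSMUSG00000066861; 120876142 to 120887613, minus) and Oas1a (ENSMUSG00000052776; 120896256 to 120907521, minus). The annotation calls Oas1b a polymorphic pseudogene and the others protein-coding. Antisense genes overlap Oasl1 (Gm13822), Oas2 (Gm43068) and Oas1c (Gm43069).

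Promoters are shown because most members are known as interferon targets and because Oas1a and Oas1g look alike up to their start sites. RefSeq promoter sequences (build GRCm38.p6, from the C57BL/6J reference and not from NOD mice) were found for 6 of the 8 members, those of Oas1b and Oas2 being unmatched. Each line gives the 120 bases upstream of the start, read 5′ to 3′ along the gene, with matches to an ISRE core in capitals.
Oas1a, chr5:120907526-120907645, minus strand: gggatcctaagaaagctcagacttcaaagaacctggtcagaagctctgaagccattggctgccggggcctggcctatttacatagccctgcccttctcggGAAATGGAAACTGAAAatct
Oas1g, chr5:120887614-120887733, minus strand: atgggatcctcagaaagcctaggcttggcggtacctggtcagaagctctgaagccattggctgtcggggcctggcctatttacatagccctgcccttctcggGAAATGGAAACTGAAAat
Oas1c, chr5:120812515-120812634, minus strand: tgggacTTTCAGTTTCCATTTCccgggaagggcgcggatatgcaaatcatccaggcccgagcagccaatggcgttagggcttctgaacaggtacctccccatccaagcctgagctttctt
Oas3, chr5:120777660-120777779, minus strand: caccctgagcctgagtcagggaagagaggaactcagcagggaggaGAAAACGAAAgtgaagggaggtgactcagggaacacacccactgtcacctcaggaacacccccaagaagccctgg
Oasl1, chr5:114923120-114923239, plus strand: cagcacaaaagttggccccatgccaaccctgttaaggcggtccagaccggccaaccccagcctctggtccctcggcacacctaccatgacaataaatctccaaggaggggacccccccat
Oasl2, chr5:114896814-114896933, plus strand: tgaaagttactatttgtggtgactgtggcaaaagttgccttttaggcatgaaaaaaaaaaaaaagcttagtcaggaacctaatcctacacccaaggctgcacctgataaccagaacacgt

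The core searched was GAAANNGAAA on both strands of the 250 bases before the start, with overlapping matches allowed. It was present in 2.98% of the 32851 mouse promoter windows of that length and in 4 of the 6 family windows. Oas1a held 2 overlapping matches from 20 to 5 bases before its start, and Oas1g held the same pair of matches from 18 to 3 bases before its own. In Oas1c the 2 matches lay on the opposite strand, from 114 to 99 bases before the start. The Oas1c stretch shown also fills the whole interval between Oas1c and Oas1b, which are transcribed away from each other. Oas3 had 1 match, from 75 to 66 bases before its start. Oasl1 and Oasl2 had none of these letters in the window. A second motif, TTCNNNGAA (the gamma-activated site), which occurs in 7.02% of windows, was found in Oas1a alone among the 6.

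Total estimated counts ran from 13755106 to 27040652 per sample. The fractions matched their names: Ins2, an insulin gene, was at 24950 to 67350 CPM in the β samples against 409 to 1687 CPM in the non-β samples, and Gcg, which encodes glucagon, was at 102900 to 132600 CPM in the non-β samples against 1413 to 9039 CPM in the β samples. The summed level of 5 α-cell markers in the β fraction fell from between 5619 and 9401 CPM at 4 weeks to between 1517 and 2570 CPM at 8 weeks. Of 17 leukocyte markers only Cd68 and Cd79a passed the filter. Ptprc, which encodes CD45, had 0 or 1 count in the β samples, up to 16 counts in the non-β samples at 4 weeks and up to 3 at 8 weeks, and Nkg7 was at 0 in all 12. The 4-week samples numbered 3 had higher values on the third principal component than the other 4-week samples of their fraction. Each count of called members below is also given without those samples where it differs. Replicate 2 of the non-β-cells at 4 weeks stood apart as well. It was at 78 on the second component, against 47.7 and 48.3 for replicates 1 and 3. On the third it was at -56.4, against -17.5 and 32.7. The labels give no batch.

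With age, Oas2 and Oasl2 rose in both fractions and Oasl1 rose in the non-β-cells. In β-cells, 2 of the 7 tested members were higher at 8 than at 4 weeks, Oas2 by 7.34-fold and Oasl2 by 2.95-fold in mean CPM, and none was lower. Among all tested genes 17.9% were called in this comparison and 8.59% were called higher. The non-β-cells had 3 of the 7 higher, Oasl2 by 18.2-fold, Oas2 by 13.8-fold and Oasl1 by 2.68-fold, and none was lower, where 16.4% of all tested genes were called and 11.6% were called higher. The 7 members had a median log2 change of 1.02 in the β fraction and 1.53 in the other, against 0.018 and 0.012 over all tested genes. These counts and medians include Oas2, which passed the filter through its 8-week samples alone, and leave out Oas3. All log2 changes, their standard errors (SE) and their adjusted p-values were taken from limma-voom on all 12 samples, with the Benjamini-Hochberg adjustment over all tested genes. Such p-values measure the spread between samples. The labels do not tie the samples to separate animals, and the study's figure legends describe them as biologically independent pools of 3 mice. Bulk RNA cannot tell fewer cells of a type from less RNA per cell.

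**Figure D1:**
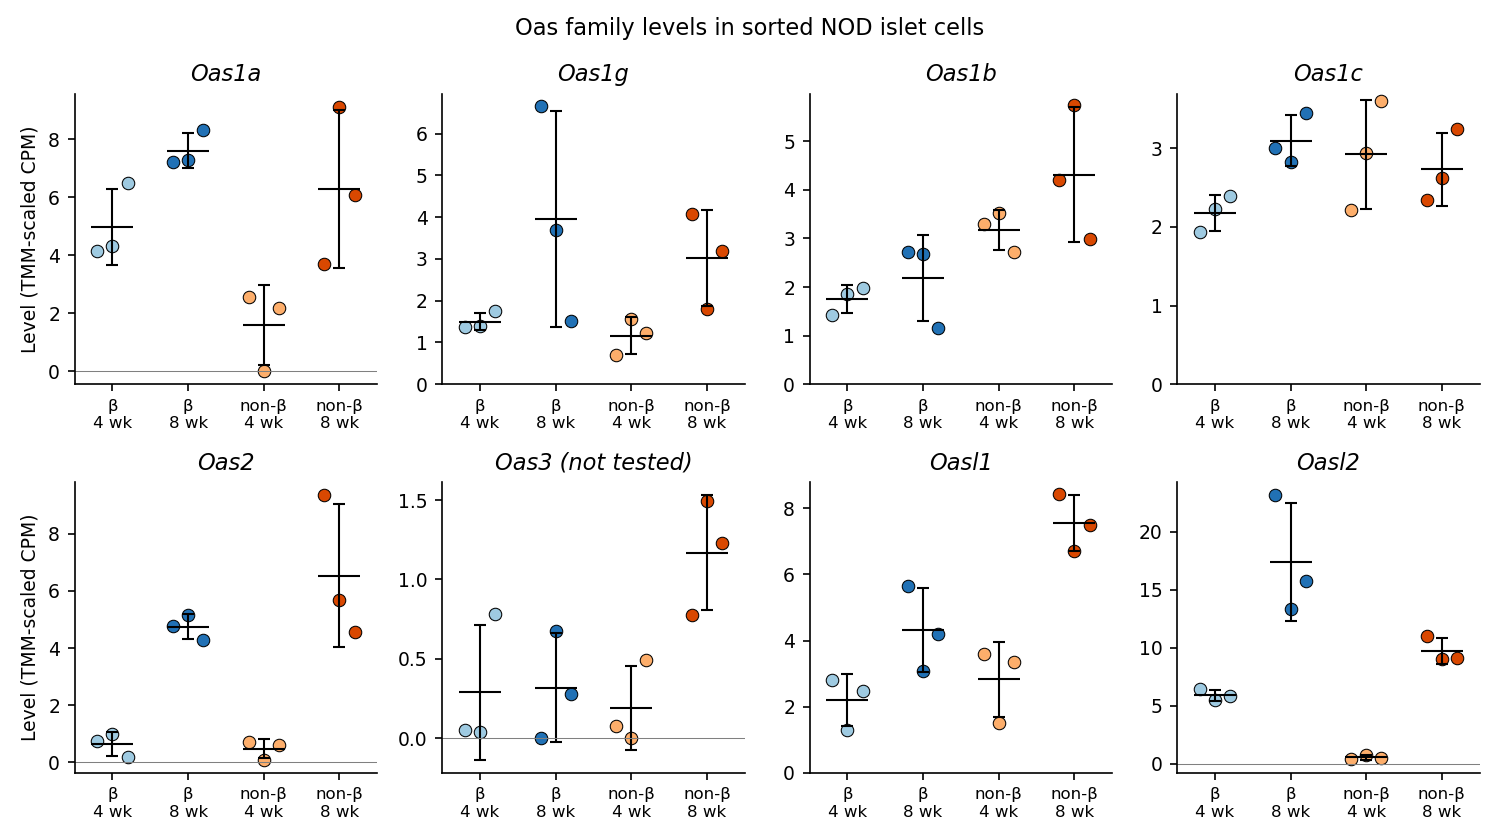
Level of each Oas family gene (vertical axis, TMM-scaled CPM, a separate scale in each panel) in the 4 groups of sorted cells. Points are the 3 samples of a group, in replicate order from left to right, and bars are the mean ± SD. Oas2 and Oasl2 are higher in every 8-week sample than in every 4-week sample of the same fraction, and Oasl2 lies below 1 CPM in the non-β-cells at 4 weeks and at 5.47 CPM or more in the β-cells.

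All 3 samples at 8 weeks lay above all 3 at 4 weeks for 5 of the 7 tested members in β-cells (Oas1a, Oas1c, Oas2, Oasl1 and Oasl2), a separation that 20.7% of all tested genes showed. In non-β-cells the 5 that separated in this way were Oas1a, Oas1g, Oas2, Oasl1 and Oasl2, against 19.0% of all tested genes. Oas2 is in both counts but passed the filter through its 8-week samples alone. Oas3, under the filter, is in neither count, although its non-β ages did not overlap. The summed level of the 8 members was 19.5 ± 2.17 CPM (SD, n = 3, as for all ± values on levels) in β-cells at 4 weeks and 43.6 ± 8.28 CPM at 8 weeks. In non-β-cells it was 12.8 ± 2.21 CPM and 41.4 ± 3.06 CPM. At 8 weeks the fractions thus differed in this sum by less than the spread between β samples.

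Oas2, one of the larger synthetases, was below 1 CPM at 4 weeks in both fractions. In β-cells at 4 weeks its levels in replicates 1, 2 and 3 were 0.763, 0.991 and 0.183 CPM, from 15, 25 and 4 counts. At 8 weeks they were 4.76, 5.16 and 4.29 CPM, from 103, 137 and 107 counts. The age groups of the β-cells did not overlap, and the older samples lay close together. The log2 change was 3.09 (SE 0.70, adjusted p = 0.00887). In non-β-cells the levels were 0.727, 0.0979 and 0.592 CPM at 4 weeks and 9.35, 5.68 and 4.57 CPM at 8 weeks. Again no 8-week sample came near a 4-week one, although replicate 1 of the older samples stood above the other two. The log2 change was 4.02 (SE 0.80, adjusted p = 0.00336). Since all 4-week levels were below 1 CPM, Oas2 passed the filter through its 8-week samples alone. Without any filter its change was 3.08 for β-cells (adjusted p = 0.0098) and 4.04 for non-β-cells (adjusted p = 0.00235). Both calls stayed with each sample left out in turn, but the low counts let 1 sample move the size: the β change was 2.39 without the 4-week replicate 3 and the non-β change was 3.21 without the 4-week replicate 2.

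Oasl2, an active synthetase with ubiquitin-like domains, rose in both fractions. Its levels in β-cells were 6.41, 5.47 and 5.83 CPM at 4 weeks and 23.2, 13.3 and 15.7 CPM at 8 weeks. All older samples lay above all younger ones, with replicate 1 the highest. The log2 change was 1.51 (SE 0.23, adjusted p = 0.000708). In non-β-cells Oasl2 went from 10, 15 and 10 counts at 4 weeks (0.383, 0.734 and 0.493 CPM) to levels of 11.0, 9.04 and 9.15 CPM at 8 weeks. The older non-β samples exceeded even the younger β samples. The log2 change was 4.22 (SE 0.64, adjusted p = 0.000449). These calls stayed with every sample left out in turn, at 1.30 to 1.69 in β-cells and 3.94 to 4.42 in non-β-cells.

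The age change of Oasl2 differed between the fractions. The difference (change in β-cells minus change in non-β-cells) was -2.71 on the log2 scale (SE 0.68, adjusted p = 0.036), and Oasl2 was the 1 member of 7 past the threshold, where 5.13% of all tested genes were. It lost the threshold in 9 of the 12 fits that each left out 1 sample, with values from -2.93 to -2.45 and adjusted p up to 0.124. The call stayed without replicate 1 or 2 of the β-cells at 8 weeks or replicate 3 of the β-cells at 4 weeks. Without both 4-week samples numbered 3 the difference was -2.72 (adjusted p = 0.0788). For the other 6 members the difference did not pass, at values between -2.61 (Oas1a, adjusted p = 0.258) and 0.55 (Oas1c, adjusted p = 0.528).

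**Figure D2:**
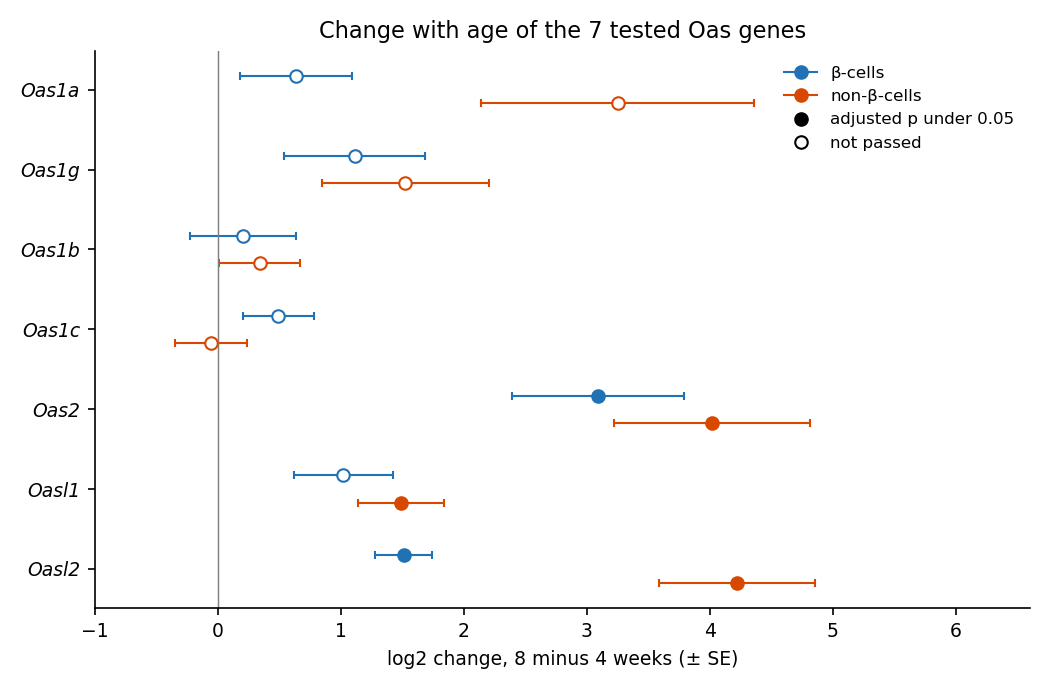
Log2 change from 4 to 8 weeks (horizontal axis, bars ± SE from limma-voom) of the 7 tested Oas genes in β-cells (blue) and non-β-cells (orange), filled where the adjusted p was under 0.05. Filled points are Oas2 and Oasl2 in both fractions and Oasl1 in non-β-cells, and the Oasl2 points lie at 1.51 and 4.22.

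Oasl1, the catalytically inactive relative, rose in the non-β-cells. Its levels there were 3.60, 1.52 and 3.35 CPM at 4 weeks and 8.44, 6.72 and 7.50 CPM at 8 weeks. The ages did not overlap, and the log2 change was 1.49 (SE 0.35, adjusted p = 0.00995). In β-cells Oasl1 was at 2.80, 1.31 and 2.48 CPM at 4 weeks and at 5.64, 3.09 and 4.21 CPM at 8 weeks. All older β samples were again above all younger ones, but the log2 change of 1.02 (SE 0.40, adjusted p = 0.0982) did not pass the threshold. An antisense gene overlaps Oasl1, and although the study's methods describe the reads as reverse-stranded, whether the counting used strand was not given in the sources used here.

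Oas1a and Oas1g, the active enzymes of the Oas1 cluster, have to be read together. Of the 31-base words in the Oas1a transcript 68.7% also occur in Oas1g, and 54.6% of those in Oas1g occur in Oas1a, so the division of reads between them was an estimate of the counting program. Oas1a levels in β-cells were 4.12, 4.32 and 6.47 CPM at 4 weeks and 7.22, 7.27 and 8.30 CPM at 8 weeks. In non-β-cells they were 2.56, 0 and 2.17 CPM at 4 weeks and 3.68, 9.11 and 6.06 CPM at 8 weeks. Replicate 2 of the younger non-β samples stood out, since all 32 counts of the pair went to Oas1g and none to Oas1a. Oas1g stood at 1.37, 1.39 and 1.74 CPM in the younger and at 6.66, 3.69 and 1.52 CPM in the older β samples. In non-β-cells they were 0.689, 1.57 and 1.23 CPM at 4 weeks and 4.07, 1.79 and 3.19 CPM at 8 weeks. The share of the pair given to Oas1a ran from 47.6% to 84.7% among the 8-week samples, a wide spread within an age.

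Taken singly, neither gene passed the threshold with age. Oas1a had a log2 change of 0.64 for β-cells (adjusted p = 0.368) and of 3.25 for non-β-cells (SE 1.11, adjusted p = 0.0651), the second value resting on the sample at 0: without it the change was 1.16 (adjusted p = 0.0969). Without both 4-week samples numbered 3 it was 4.15 (adjusted p = 0.048), which made 4 called members in that comparison. Oas1g had changes of 1.11 for β-cells (adjusted p = 0.208) and of 1.53 for non-β-cells (adjusted p = 0.157). Without replicate 3 of the β-cells at 8 weeks, the sample in which Oas1g was lowest at that age, the β change was 1.66 (adjusted p = 0.0346).

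The counts of Oas1a and Oas1g were therefore also added into 1 row before the fit, a step chosen after the data had been seen. In β-cells the summed pair was at 5.48, 5.70 and 8.19 CPM at 4 weeks and at 13.9, 11.0 and 9.83 CPM at 8 weeks. No older sample overlapped a younger one, and the pair rose by 0.83 on the log2 scale (SE 0.23, adjusted p = 0.0259). In non-β-cells the pair was at 3.23, 1.57 and 3.40 CPM at 4 weeks and at 7.75, 11.0 and 9.26 CPM at 8 weeks. There it rose by 1.77 (SE 0.33, adjusted p = 0.00247). The non-β call stayed with each sample left out. The β call was lost without replicate 1 (0.73, adjusted p = 0.0961) or 2 (0.72, adjusted p = 0.109) of the 4-week samples, or replicate 1 (0.70, adjusted p = 0.0944) or 2 (0.84, adjusted p = 0.0642) of the 8-week samples. With all 8 Oas1 genes of the table added into 1 row, the changes were 0.59 (adjusted p = 0.0307) in β-cells and 0.84 (adjusted p = 0.00772) in non-β-cells.

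**Figure D3:**
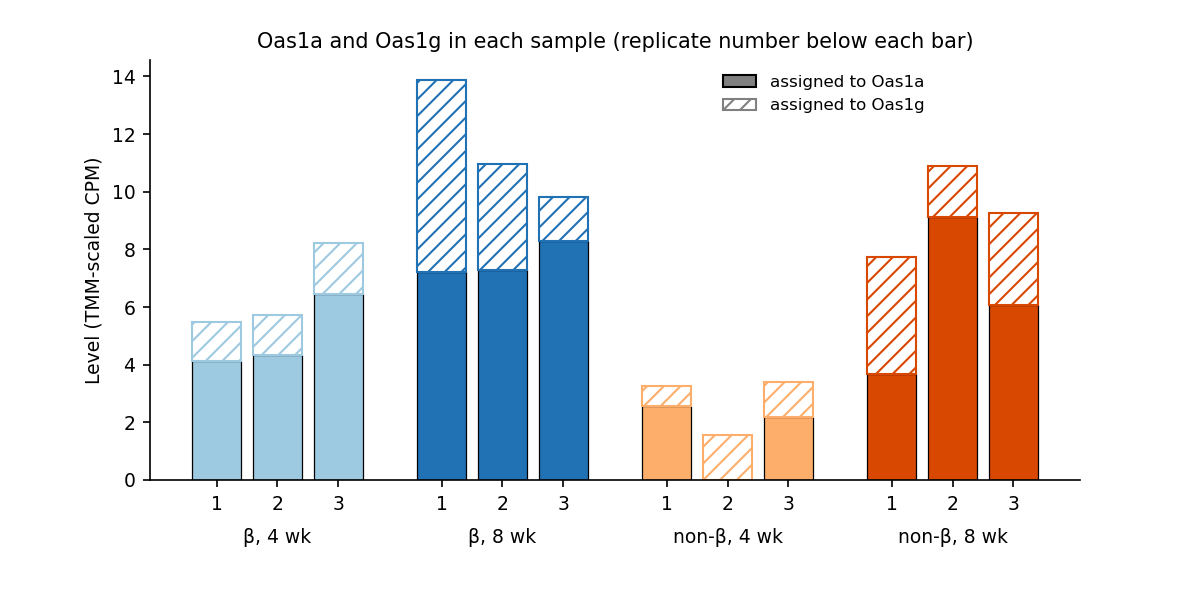
Level (vertical axis, TMM-scaled CPM) assigned to Oas1a (solid) and Oas1g (hatched) in each of the 12 samples, stacked. The stacked total is higher in every 8-week sample than in every 4-week sample of the same fraction, while the division between the genes varies within groups, with no Oas1a counts in replicate 2 of the non-β-cells at 4 weeks.

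Oas1b and Oas1c, members of the cluster not known as active synthetases, did not pass the threshold with age in either fraction. Oas1b was at 1.43, 1.86 and 1.97 CPM in the younger and at 2.73, 2.68 and 1.16 CPM in the older β samples. It was at 3.29, 3.52 and 2.71 CPM in the younger and at 4.20, 5.75 and 2.98 CPM in the older non-β samples. The ages overlapped in both fractions, with log2 changes of 0.20 (adjusted p = 0.785) and 0.34 (adjusted p = 0.554). Oas1c was at 1.93, 2.22 and 2.39 CPM in the younger and at 3.01, 2.83 and 3.45 CPM in the older β samples. Those groups did not overlap, but the log2 change of 0.49 (SE 0.29, adjusted p = 0.27) did not pass. In non-β-cells Oas1c was at 2.22, 2.94 and 3.60 CPM at 4 weeks and at 2.34, 2.62 and 3.24 CPM at 8 weeks, for a change of -0.05 (SE 0.29, adjusted p = 0.932). Oas1c shares 25.2% of its 31-base words with other genes, the largest part, 11.8%, with Oas1e.

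Oas3 was under the filter. In β-cells it had 1.1, 1.5 and 17.3 estimated counts at 4 weeks and 0, 18.3 and 7.2 counts at 8 weeks. In non-β-cells it had 2.0, 0 and 10.0 counts at 4 weeks and 17.8, 20.4 and 24.5 counts at 8 weeks. The older non-β samples, at 0.779, 1.49 and 1.23 CPM, lay above the younger ones, at 0.0765, 0 and 0.493 CPM, whereas the β ages overlapped. With no filter on low counts the non-β change was 3.37 (adjusted p = 0.102). Among the next synthetase genes of the cluster, Oas1d, Oas1e, Oas1f and Oas1h were all under the filter, and only Oas1d reached 12.1 to 18.5 counts in each sample of a group, the β-cells at 4 weeks. At 8 weeks Oas1d had 0 to 8 counts in β-cells, below the younger samples. Its β change with no filter was -2.83 (adjusted p = 0.156).

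Between the fractions, β-cells held more Oasl2 at both ages. More Oas1a in β-cells at 4 weeks and less Oasl1 and Oas1b at 8 weeks were also called, but these calls were lost in some fits. At neither age was the called share of the family above that of all tested genes. At 4 weeks 2 of the 7 members were called, both higher in β-cells, where 48.5% of all tested genes were called. Oasl2 was 11.0-fold higher in mean CPM in β-cells, with a log2 difference of 3.47 (SE 0.64, adjusted p = 0.000712). Oas1a differed by 3.08 (SE 1.11, adjusted p = 0.0354), which again rested on its sample at 0: without that sample the difference was 1.03 (adjusted p = 0.0694), and without replicate 3 of the younger β-cells it was 2.88 (adjusted p = 0.0577). The summed Oas1a and Oas1g pair, at 6.47 ± 1.51 CPM in β samples and 2.73 ± 1.01 CPM in non-β samples, differed by 1.27 (SE 0.34, adjusted p = 0.00826) and kept its call with each sample left out.

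At 8 weeks 3 of the 7 members were called, in a comparison that called 49.2% of all tested genes. Oasl2 was 1.79-fold higher in β-cells, with a log2 difference of 0.77 (SE 0.21, adjusted p = 0.00846), and the call stayed with each sample left out. Oasl1 was lower in β-cells by 0.90 (SE 0.30, adjusted p = 0.0226), with β levels up to 5.64 CPM and non-β levels from 6.72 CPM. That call was lost with DESeq2 (adjusted p = 0.0677) and with the quasi-likelihood test of edgeR (adjusted p = 0.0985), and without replicate 2 (-0.66, adjusted p = 0.115) or 3 (-0.89, adjusted p = 0.0585) of the β-cells or replicate 1 (-0.80, adjusted p = 0.0876) of the non-β-cells. Oas1b was lower in β-cells by 0.98 (SE 0.36, adjusted p = 0.0382). Its call was lost with the edgeR test (adjusted p = 0.0595), with no filter on low counts (adjusted p = 0.0648) and with only the groups compared in the model (adjusted p = 0.0515), and without replicate 3 of the β-cells (-0.55, adjusted p = 0.187) or replicate 1 (-0.94, adjusted p = 0.0953) or 2 (-0.83, adjusted p = 0.104) of the non-β-cells. The median log2 difference of the 7 members was 0.48 at 4 weeks and 0.073 at 8 weeks, and that of all tested genes was 0 and 0.014.

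Ranked over the 4 groups, Oasl2 was the member whose groups were fully apart: the mean fell from the older β-cells (17.4 ± 5.13 CPM) to the older non-β-cells (9.74 ± 1.12 CPM), the younger β-cells (5.90 ± 0.476 CPM) and the younger non-β-cells (0.537 ± 0.180 CPM), with no overlap between neighbours. For Oas2 both 8-week groups lay above both 4-week groups, and neither the 8-week pair (6.53 ± 2.50 CPM in non-β-cells and 4.74 ± 0.436 CPM in β-cells) nor the 4-week pair was separated. Oasl1 had its highest mean in non-β-cells at 8 weeks (7.56 ± 0.860 CPM), clear of β-cells at 8 weeks (4.32 ± 1.28 CPM), while the lower neighbours overlapped. Oas1a set apart only its lowest group, the non-β-cells at 4 weeks (1.58 ± 1.38 CPM). Oas1g had its non-β-cells at 8 weeks (from 1.79 CPM) just clear of its β-cells at 4 weeks (up to 1.74 CPM), while its other neighbours overlapped. Oas3, under the filter, had its non-β-cells at 8 weeks clear of its β-cells at 8 weeks, while its lower neighbours overlapped. For Oas1b and Oas1c every pair of neighbours overlapped. How many of all tested genes had their 4 groups fully apart, as Oasl2 did, was not counted.

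To compare members with each other, levels were divided by the mean length of each gene's protein-coding transcripts. On this scale, in CPM per kb, Oasl2 led in the younger β-cells (4.32 ± 0.348), the older β-cells (12.7 ± 3.75) and the older non-β-cells (7.13 ± 0.822). It made up 37.1%, 49.0% and 31.6% of the summed per-kb level of the 8 genes in these groups. In non-β-cells at 4 weeks Oasl2 was at 0.393 ± 0.131 CPM per kb, or 5.41% of the sum, and Oas1c (2.16 ± 0.510) and Oas1b (1.73 ± 0.228) led. Oas2 went from 1.92% to 6.31% of the sum in β-cells and from 2.26% to 10.0% in non-β-cells. The lead of Oasl2 depended on the length used: the union of all its exons is 6.374 kb against a mean coding transcript of 1.367 kb, and per kb of union length Oas1a led in both β groups (2.64 and 4.03 CPM per kb) and in the older non-β-cells (3.33 CPM per kb), with Oasl2 at 20.1% of the sum in β-cells at 8 weeks.

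**Figure D4:**
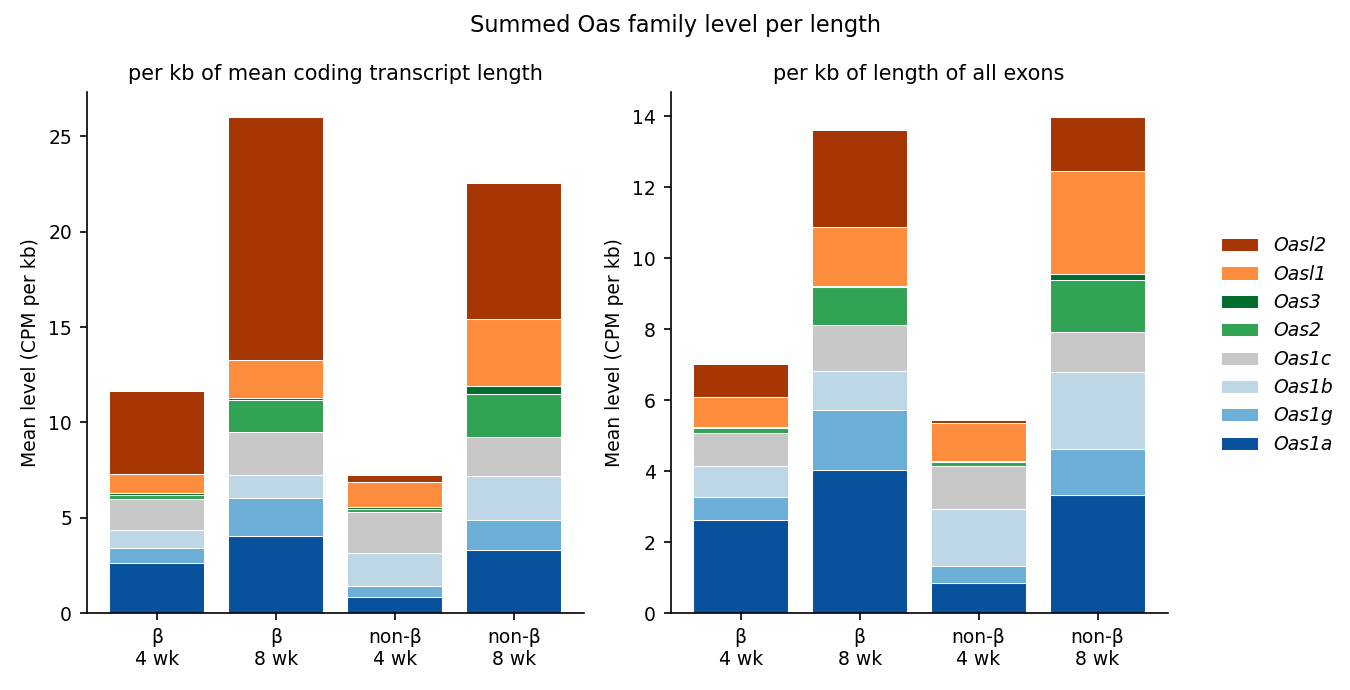
Mean level of the 8 Oas genes (vertical axis, CPM per kb, stacked) in the 4 groups, with the mean length of coding transcripts (left) or of all exons (right) as the length of a gene. Both panels show taller stacks at 8 than at 4 weeks in each fraction, and Oasl2 takes 49.0% of the stack of the β-cells at 8 weeks on the left and 20.1% on the right.

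The genes whose log2 CPM followed each member most closely over the 12 samples were listed as a description, with Pearson's r and no test, since 12 samples in 4 groups give high values to any gene with similar group means. For Oas2 the closest was Ddx58 (r = 0.981), which encodes the RNA sensor RIG-I, then Golm1 (r = 0.968) and Ttll13 (r = 0.946). For Oasl2 they were Mtmr11 (r = 0.983), Ripk2 (r = 0.972) and Gp2 (r = 0.972), and for Oasl1 they were Itgb4 (r = 0.956), Gm8909 (r = 0.943) and Lamb3 (r = 0.922). Oas1a came closest to Scarf2 (r = 0.956), Oas1b to Taf8 (r = 0.913), Oas1c to Nmral1 (r = 0.910) and Oas1g to Pde4b (r = 0.825). No Oas gene was among the 3 closest genes of another, among genes with a mean log2 CPM of at least 1.

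None of the 3 genes of the 2-5A pathway described here was called with age in either fraction. Among all tested genes the called share was 17.9% for the β and 16.4% for the non-β fraction. A list of 3 genes is too short for the lack of calls to set it apart from those shares. Abce1, and Pde12 and Akap7, which each encode a 2′-5′ phosphodiesterase, had log2 changes between -0.21 and 0.31.

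Most other RNA sensors and their partners were higher in the older β-cells as well. Of 8 such genes 7 were called higher there: Zbp1 by 5.38, Dhx58 by 1.79, Ifih1 by 1.27, Tlr3 by 1.08, Ddx58 by 0.99, Eif2ak2 (PKR) by 0.72 and Adar, the RNA editor, by 0.56 on the log2 scale, with adjusted p from 0.00173 to 0.0352, where 8.59% of all tested genes were called higher. With no filter on low counts the call of Tlr3 was lost (adjusted p = 0.0672). The size for Zbp1 rests on few counts, since it had 0 to 4 counts per β sample and 3 to 12 per non-β sample at 4 weeks and passed the filter through its 8-week samples alone. Mavs, the adaptor shared by Ddx58 and Ifih1, was at 0.051 (adjusted p = 0.878). The non-β-cells had 3 of the 8 higher, Zbp1 by 4.69, Dhx58 by 1.71 and Ddx58 by 1.17, against 11.6% of all tested genes, and none was lower. The age change of none of the 8 differed between fractions past the threshold.

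Of 13 interferon signalling genes, 5 rose in β-cells, the transcription factors Irf7 by 1.45, Irf1 by 0.85, Stat2 by 0.74, Stat3 by 0.57 and Irf9 by 0.35 (adjusted p from 0.000169 to 0.0243), against 8.59% of all tested genes called higher. With no filter on low counts the call of Irf9 was lost (adjusted p = 0.0812). In non-β-cells, where 11.6% of all tested genes were called higher, 6 of the 13 rose: Irf1 by 2.57, Irf7 by 1.63, Ifngr1 by 0.54, Ifngr2 by 0.52, Jak1 by 0.48 and Stat3 by 0.36. The receptor genes of type I interferon, Ifnar1 and Ifnar2, had changes between -0.13 and 0.24 that did not pass. The age change differed between fractions for Irf1 (-1.73, adjusted p = 2.99e-05), Ifngr1 (-0.80, adjusted p = 0.0123) and Ifngr2 (-0.73, adjusted p = 0.0149), where 5.13% of all tested genes were called. These differences had the sign of that of Oasl2. Oasl2 rose in both fractions, however, while Ifngr1 and Ifngr2 had changes of -0.27 and -0.22 in β-cells that did not pass. Of 8 interferon genes looked up, 7 had no reads: Ifnb1, Ifna2, Ifna4, Ifne, Ifng, Ifnl2 and Ifnl3 had 0 counts in all 12 samples, which allows up to 3 counts in each (0.218 CPM in the smallest library), and Ifnk had 5 counts in 1 sample.

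**Figure D5:**
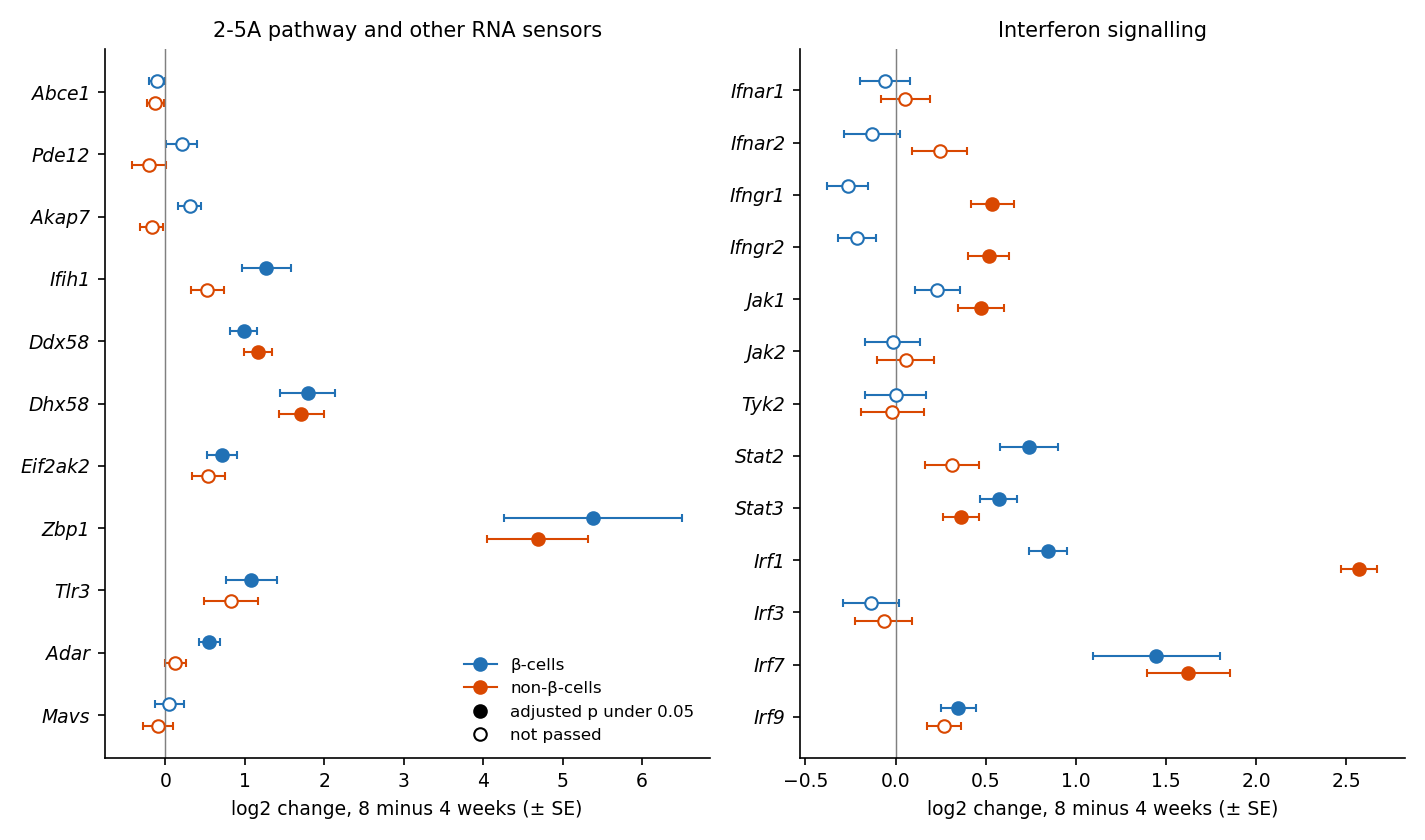
Log2 change from 4 to 8 weeks (horizontal axes, bars ± SE from limma-voom) of the 2-5A pathway and other RNA sensors (left) and of interferon signalling genes (right), in β-cells (blue) and non-β-cells (orange), filled where the adjusted p was under 0.05. Zbp1, with 12 counts or fewer in each 4-week sample, has the largest changes on the left (5.38 and 4.69), and Irf1 in non-β-cells the largest on the right (2.57).

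Markers of other cell types moved with age in the same samples. In the non-β-cells all 8 endothelial markers rose, with a summed level of 49.4 to 92.1 CPM at 4 weeks and 382 to 1042 CPM at 8 weeks, and all 8 mesenchymal markers rose, with a sum of 106 to 306 CPM in the younger and 691 to 1076 CPM in the older samples. In the same samples 4 of 5 duct markers and 3 of 6 acinar markers rose, the acinar sum from between 34.3 and 80.6 CPM to between 181 and 644 CPM. Over all tested genes 11.6% were called higher in that comparison. No marker of these lists was at 0 throughout a group. Their part in the non-β changes of Oas2, Oasl1, Oasl2 and the Oas1a and Oas1g pair was not tested. In β-cells the endothelial sum was 6.82 to 16.0 CPM at 4 weeks and 13.1 to 16.4 CPM at 8 weeks with 0 of 8 markers called. Only 1 of 8 mesenchymal markers was called higher, but their sum was 4.36 to 15.4 CPM at 4 weeks and 26.0 to 53.9 CPM at 8 weeks. Of the acinar markers 4 of 6 rose (sum 81.2 to 156 CPM against 378 to 794 CPM). Among all tested genes 8.59% were called higher in β-cells. All 5 α-cell markers fell and 5 of 8 β-cell markers rose in the β fraction, whose part in the changes of Oas2 and Oasl2 there was not tested. Of the leukocyte markers Cd68 rose in both fractions, by 0.51 for β-cells (adjusted p = 0.0136) and by 0.81 for non-β-cells (adjusted p = 0.0106). Its mean was higher in β-cells (48.8 CPM at 4 and 69.6 CPM at 8 weeks) than in non-β-cells (9.15 and 16.5 CPM). Cd79a, which also passed the filter, was called in neither fraction (0.22, adjusted p = 0.705, and 1.61, adjusted p = 0.343). The other 15 of the 17 stayed under the filter, and 4 of the 17 had no count in any β sample at 8 weeks.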

How the data were processed

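A strand-specific low-input kit for total RNA was used for the libraries, per the labels. The reverse-stranded reads were, as the study's methods state, trimmed by the authors with fastp and assigned to Ensembl 98 transcripts (GRCm38) with kallisto, and transcripts were added up to genes by tximport. What the authors deposited are these estimated counts, neither scaled nor filtered. Software versions and the strand setting of the counting are not given in the sources used here. Reads of near-identical genes are divided by estimation, which affects the Oas1 genes most.

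Counts were rounded, genes with CPM above 1 in at least 3 of 12 samples were kept, and libraries were scaled by TMM (edgeR 4.0.16). Differences were tested two-sided with limma-voom (limma 3.58.1, R 4.3.3) with 4 group means, as in the study's methods, at an adjusted p of 0.05. All members were named, and listed pathway genes where past that threshold with age. Members and lists were chosen with earlier results of these data known. Lengths and positions came from GENCODE M21 (GRCm38). Alternatives included DESeq2 1.42.0, the quasi-likelihood test of edgeR, other scalings, filters and weights, the replicate number as a block, and left-out samples. The model was tested on simulated data. Some genes of the pathway and marker lists are not reported here and are left out of their counts.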

Additional observations from a re-analysis of the deposited data

Results flagged for a closer look

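The age change of Oasl2 differed between the fractions by -2.71 on the log2 scale (limma-voom, adjusted p = 0.036), a log2 rise of 1.51 in β-cells against 4.22 in non-β-cells. It was picked out because the difference between the fractions was itself tested and passed the threshold. The call was lost in 9 of the 12 fits with 1 sample left out (adjusted p up to 0.124) and without both 4-week samples numbered 3 (adjusted p = 0.0788). Most of it came from the 4-week samples, where the mean of Oasl2 was 5.90 CPM in the β and 0.537 CPM in the non-β fraction, since at 8 weeks the means were 17.4 and 9.74 CPM. Non-β levels at 4 weeks rested on 10 to 15 counts per sample.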

How the results depend on the processing

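The number of members called with age was 2 or 3 in β-cells and 3 or 4 in non-β-cells under every alternative run. The main fit tested 7 members, and the fits with no filter or with at least 10 counts in 3 samples tested 8. With the Oas1 genes summed 4 rows were tested, 1 of them the sum of all 8 Oas1 genes, so its age counts are not like ones. In β-cells the number was 3 in place of 2 with sample quality weights, with the Oas1 genes summed and without replicate 3 at 8 weeks. Over all genes those fits called 5382, 2800 and 1695 in that order, against 2799 in the main fit. In non-β-cells the number was 4 in place of 3 with DESeq2, with quality weights, with the Oas1 genes summed and without both 4-week samples numbered 3. Over all genes those fits called 2853, 3701, 2561 and 3437 in that order, against 2561 in the main fit. At 4 weeks β-cells against non-β-cells gave 1 called member in place of 2 with edgeR's test, sample quality weights, the replicate block, only the groups compared, or the Oas1 genes summed, and from 1 to 2 with 1 replicate left out. Over all genes those alternatives called 7619, 8956, 9005, 5913 and 7569 in that order, against 7570 in the main fit. The main fit tested 7 members at that age, and the fit with only the groups compared tested 6. With the Oas1 genes summed 4 rows were tested and Oas1a had no row of its own, so that count is not a like one. At 8 weeks β-cells against non-β-cells gave 1 in place of 3 with edgeR's test, and from 1 to 3 with 1 replicate left out. With DESeq2, with no filter on low counts or with only the groups compared, 1 call of the 3 was lost. Over all genes calls numbered 7679 in the main fit and 7343 with edgeR's test. They numbered 7775 with DESeq2, 8108 of 28647 tested with no filter and 8907 of 14940 with only the groups compared. For the difference of the age changes the count was 0 in place of 1 without both 4-week samples numbered 3, and from 0 to 1 with 1 replicate left out. The cause was not tested.

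Changes of sign touched only values that never passed the threshold. Oas1c in non-β-cells (main value -0.05) was 0.19 with quality weights, 0.11 without both 4-week samples numbered 3, and from -0.30 to 0.11 with 1 replicate left out. The difference of age changes for Oas1b was 0.001 with quality weights, 0.033 without those samples and from -0.38 to 0.28 with 1 left out, and that for Oas1g was 0.008 with edgeR, 0.022 with the block and from -0.85 to 0.16 with 1 left out. With 1 replicate left out, the age change of Oas1b in β-cells ran from -0.021 to 0.59, Oas2 between fractions at 4 weeks from -0.30 to 1.18, and Oas1g between fractions at 8 weeks from -0.37 to 0.66. Of the alternatives to calls that passed, 10 of 119 single-member values lost the threshold, as did 17 of 72 with 1 replicate left out.

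Same-numbered samples were not shown to be pairs: deviations from group means correlated at 0.080 to 0.306 between fractions at 4 weeks, 0.008 to 0.049 at 8 weeks, and -0.006 to 0.124 across ages, and not every sample correlated best with its own number. With the replicate number as a block, Oas1a between fractions at 4 weeks was 1.52 (adjusted p = 0.0713), the one member call the block changed. Over all genes, calls with age in β-cells numbered 2799, against 5382 with quality weights and 1695 to 2491 with 1 sample left out (1734 or fewer without any 1 of the 8-week β samples), and calls for the difference of age changes numbered 800, against 1562 with DESeq2, 2384 with quality weights, 1879 with the block, 1468 without both 4-week samples numbered 3 and 455 to 979 with 1 sample left out (510 or fewer without any 1 of the 8-week β samples, the 4-week non-β replicate 1 or the 8-week non-β replicate 3). Counts under about 20 per sample, as for Oas2 and Oasl2 in the younger non-β-cells and for Oas3, limit the precision of fold changes.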
